A study of Sus scrofa with 30 samples.

Results

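The 9 genes described here write, keep, remove or protect DNA methylation, and they were chosen by name: DNMT1, DNMT3A, DNMT3B, DNMT3L, TET1, TET2, TET3, UHRF1 and ZFP57. All 9 were found among the 19484 protein-coding genes that the pig annotation places on chromosomes 1 to 18 and X. Trimethylated lysine 4 (H3K4me3) and trimethylated lysine 27 (H3K27me3) of histone H3 were mapped in oocytes of the pig and in embryos fertilised in vitro, using ULI-NChIP-seq, a native chromatin immunoprecipitation made for very few cells. H3K4me3 was mapped in germinal vesicle (GV) oocytes, metaphase II (MII) oocytes, 1-cell, 2-cell, 4-cell and 8-cell embryos, morulae and blastocysts, and in 4-cell embryos grown from zygotes injected with small interfering RNA (siKDM5BC) that targets KDM5B and KDM5C, which remove H3K4 methylation. H3K27me3 was mapped in MII oocytes, 2-cell, 4-cell and 8-cell embryos, morulae and blastocysts. Each of the 15 groups had 2 libraries. No library with a control siRNA is labelled, so untreated 4-cell embryos were the control, and the injection itself and the loss of KDM5B and KDM5C cannot be told apart. The labels give neither the number of embryos pooled nor whether replicates came from different collections, and p-values here rest on the spread between libraries, which may be technical.

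DNMT3A and DNMT3B are the enzymes that place methyl groups on unmethylated CpG sites, and DNMT3L is their partner without catalytic activity, which is needed for methylation of the mammalian oocyte genome. DNMT1 copies methylation to the new strand after replication, and UHRF1 recruits it to hemimethylated CpG sites. TET1, TET2 and TET3 oxidise 5-methylcytosine, and TET3 is the form known from the oocyte and zygote. ZFP57 is a zinc finger protein that keeps imprinted regions methylated while the rest of the genome is being reprogrammed. As background, H3K4me3 marks active and poised promoters and, in mammalian oocytes, also broad domains away from them. H3K27me3 is the mark of Polycomb repression.

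The data were lists of broad peaks, 1 for each library, in the coordinates of the pig build susScr11. The value used is the number of base pairs (bp) under peaks within 5 kb on either side of a gene end, or over the whole gene with 5 kb on either side. The annotation used here gives no strand, so the ends are called lower and upper by their coordinate, and neither can be named as the transcription start. The lists hold no read totals, so depth is unknown. H3K4me3 peaks covered 31.6 Mb (4-cell replicate 2) to 178.8 Mb (siKDM5BC replicate 1), and H3K27me3 peaks 1.28 Mb (2-cell replicate 2) to 108.9 Mb (blastocyst replicate 2). The median H3K4me3 cover over all gene ends was 790 and 329 bp in 4-cell embryos and 1786 and 1582 bp in siKDM5BC embryos. Oocyte markers had an H3K4me3 peak at either end in 6 to 7 of 7 genes in the GV and MII libraries and in 4 to 7 of 7 in the others, with 6 to 7 also at the 1-cell and 8-cell stages, so this count does not separate oocyte from embryo libraries. Trophectoderm markers had one in 6 of 6 genes in every H3K4me3 library, with a summed cover of 43807 to 47439 bp in morulae and blastocysts and 15167 to 42133 bp elsewhere. Of the 6 cumulus and granulosa markers, 1 to 4 had a peak, and of the 7 sperm markers, 1 to 6 had one. These lists describe a histone mark and not transcripts, and what part other cells had in the values was not tested.

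H3K4me3 lay differently over the 9 genes. DNMT3A, DNMT3B, TET2, TET3 and ZFP57 carried it at a gene end through most stages, and the cover at an end of DNMT3A, TET2, TET3 and ZFP57 changed across the stages. DNMT1, UHRF1 and TET1 had little or no H3K4me3 at their ends in morulae and blastocysts. All 3 had cover there in some earlier libraries, but only under peaks of −log10 q below 3. The strongest blastocyst peaks of these 3 genes, and of TET3, lay inside the gene and outside both end windows. DNMT3L was marked in patches over the whole gene in oocytes and early cleavage. Of the 18 gene ends, 5 passed a test of any change across the 8 stages (limma's moderated F test on covered bp, Benjamini-Hochberg (BH) adjusted p under 0.05 over 34796 ends). Over all ends tested, 45.7% passed, so the ends of these 9 genes did not pass more often than the background.

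**Figure D1:**
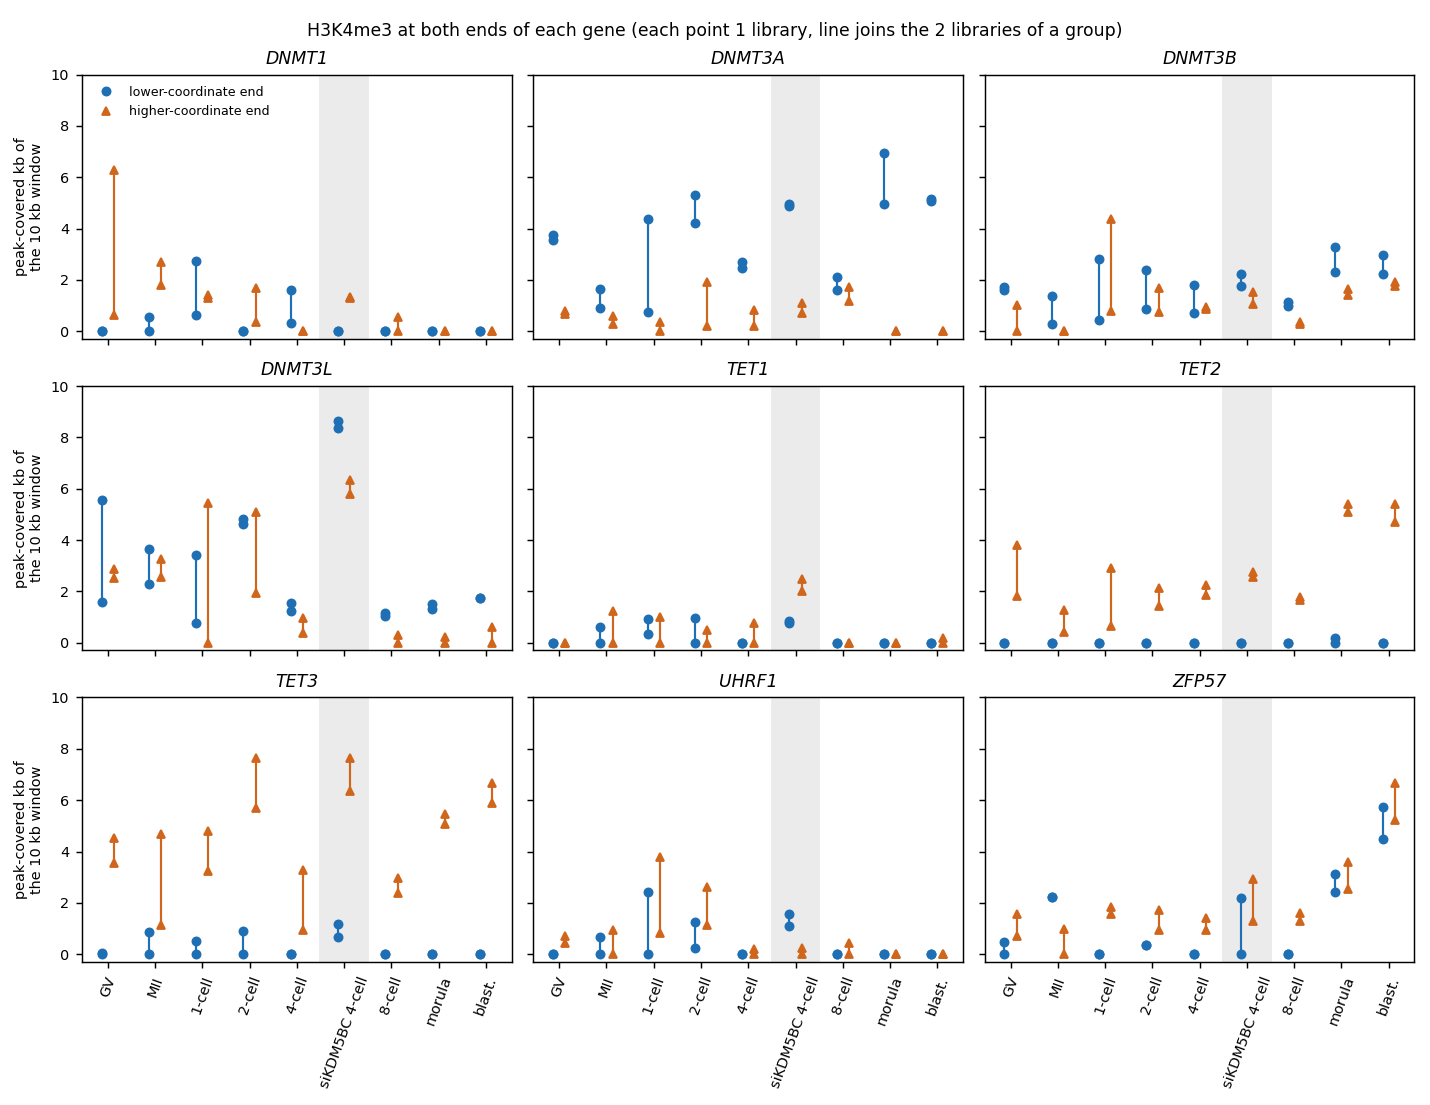
H3K4me3 peak cover (kb) within 5 kb of the lower-coordinate end (circles) and the higher-coordinate end (triangles) of each gene, by group on the x axis, with each point 1 library and the siKDM5BC group shaded. The DNMT3L lower end stands at 8364 and 8622 bp in the siKDM5BC libraries, and TET2 and ZFP57 are highest in morulae and blastocysts.

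Among the de novo methyltransferases, DNMT3A (gene 100037301, chromosome 3, 113501972 to 113609148) was marked at its lower end in every library. The cover there was 3735 and 3555 bp in GV oocytes, 921 and 1643 bp in MII oocytes, 757 and 4358 bp at the 1-cell stage and 4212 and 5304 bp at the 2-cell stage. It was 2679 and 2457 bp at the 4-cell stage, 2097 and 1603 bp at the 8-cell stage, 4957 and 6961 bp in morulae and 5058 and 5163 bp in blastocysts. Both libraries of the morula and the blastocyst were above both libraries of the MII oocyte, the 4-cell stage and the 8-cell stage, while the 1-cell libraries spanned most of the range. The change across stages passed the test (limma, BH adjusted p = 0.0127), and so did the step from the 8-cell stage to the morula, which was 4109 ± 976 bp (SE; limma, BH adjusted p = 0.0122; 15.8% of all ends passed at this step). The peak at this end starts at the gene's edge and runs into the gene, and it was 10723 and 10105 bp wide in the blastocyst libraries. At the upper end of DNMT3A the cover moved the other way, from 1721 and 1196 bp at the 8-cell stage to 0 in both morula libraries (difference -1459 ± 437 bp, limma, BH adjusted p = 0.0401).

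DNMT3B (gene 100302109, chromosome 17, 36345715 to 36386076) also kept a peak within 5 kb of its lower end in all 18 H3K4me3 libraries, from 283 bp in MII replicate 1 to 3286 bp in morula replicate 1. The fold enrichment of that peak, which is the authors' value, was 9.25 and 8.85 in morulae and 11.1 and 12.2 in blastocysts. In the other libraries it was 3.19 to 5.24. The fold was therefore higher in both late stages than in any earlier library, but its rank among the peaks of the same list was not. The share of peaks in the same list with a lower fold was 90.7% and 93.5% in morulae and 95.85% and 96.8% in blastocysts. In the other libraries that share was 47.0% (GV replicate 2) to 97.6% (GV replicate 1). The covered length did not pass the test across stages at either end. The blastocyst and MII libraries differed by 1772 bp at the lower end (limma, BH adjusted p = 0.0988). The upper window of DNMT3B also holds the lower end of the neighbouring MAPRE1, 4622 bp away.

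DNMT3L (gene 100621554, chromosome 13, 207119025 to 207141990) was the gene with the most patchy H3K4me3 in oocytes and early embryos. Peaks covered 39.3% and 24.9% of the gene with its 5 kb flanks in GV oocytes, 25.5% and 37.1% in MII oocytes, 2.30% and 41.1% at the 1-cell stage and 48.2% and 32.3% at the 2-cell stage. The share was 15.5% and 6.59% at the 4-cell stage, 3.56% and 9.58% at the 8-cell stage, 7.92% and 8.00% in morulae and 9.31% and 13.4% in blastocysts. Leaving aside the 1-cell replicate 1 library, every library up to the 2-cell stage was above every later untreated library. The whole-gene cover changed across stages (limma, BH adjusted p = 0.0374; 65.9% of all genes passed), while neither end window did. With peaks of −log10 q of 3 or more alone, both end windows were empty in every library up to the 2-cell stage. The lower window then held 1246 and 947 bp at the 4-cell stage and 1735 and 1724 bp in blastocysts, and it passed across stages (limma). Whole-gene cover was not measured at that threshold. From the 8-cell stage on, nothing was left within 2.5 kb of the lower end, and the cover that remains in the wider window is a peak 4.3 kb below it, over the upper end of ICOSLG. That neighbouring peak was present in 17 of the 18 libraries and had a fold enrichment of 10.1 and 9.04 in blastocysts.

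The maintenance pair was marked inside the gene. DNMT1 (gene 606746, chromosome 2, 68981564 to 69040364) had at its upper end 6263 and 640 bp in GV oocytes, 1798 and 2705 bp in MII oocytes, 1429 and 1297 bp at the 1-cell stage and 370 and 1666 bp at the 2-cell stage. From the 4-cell stage to the blastocyst that window was empty in every untreated library except 8-cell replicate 2, with 555 bp. The lower window held 0 to 2751 bp in the stage libraries and was empty from the 8-cell stage on. Neither end passed the test across stages, and no peak in either window had a −log10 q of 3 or more. Another site, 46.6 kb from the lower end and 10.1 kb from the upper end, held a peak in 13 of the 16 stage libraries and was missing from GV replicate 2 and both MII libraries. Its fold enrichment was 6.24 and 3.97 at the 4-cell stage, 8.52 and 7.69 in morulae and 10.2 and 13.3 in blastocysts. The share of peaks in the same list with a lower fold was 97.9% and 61.1%, 88.5% and 89.85%, and 93.85% and 98.2% in turn. In morulae and blastocysts, H3K4me3 of DNMT1 lay inside the annotated gene and outside both end windows.

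UHRF1 (gene 100511003, chromosome 2, 73898061 to 73937727) showed the same arrangement. Its lower window held 0 to 2433 bp and its upper window 0 to 3785 bp in the stage libraries, both highest in 1-cell replicate 2, and both windows were empty in all 4 morula and blastocyst libraries. A peak 31.3 kb from the lower end and 5.7 kb from the upper end was present in 18 of the 18 H3K4me3 libraries. Its fold enrichment ran from 3.18 in 1-cell replicate 1 to 10.7 in blastocyst replicate 1. The share of peaks in the same list with a lower fold ran otherwise, from 56.0% in 1-cell replicate 2 to 99.35% in GV replicate 2. It was 95.0% and 89.2% in blastocysts. Neither end of UHRF1 passed the test across stages, and ARRDC5 overlaps its upper end. These inner sites were chosen from the strongest blastocyst peaks after the values were seen, and they are given as a description with no test.

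**Figure D2:**
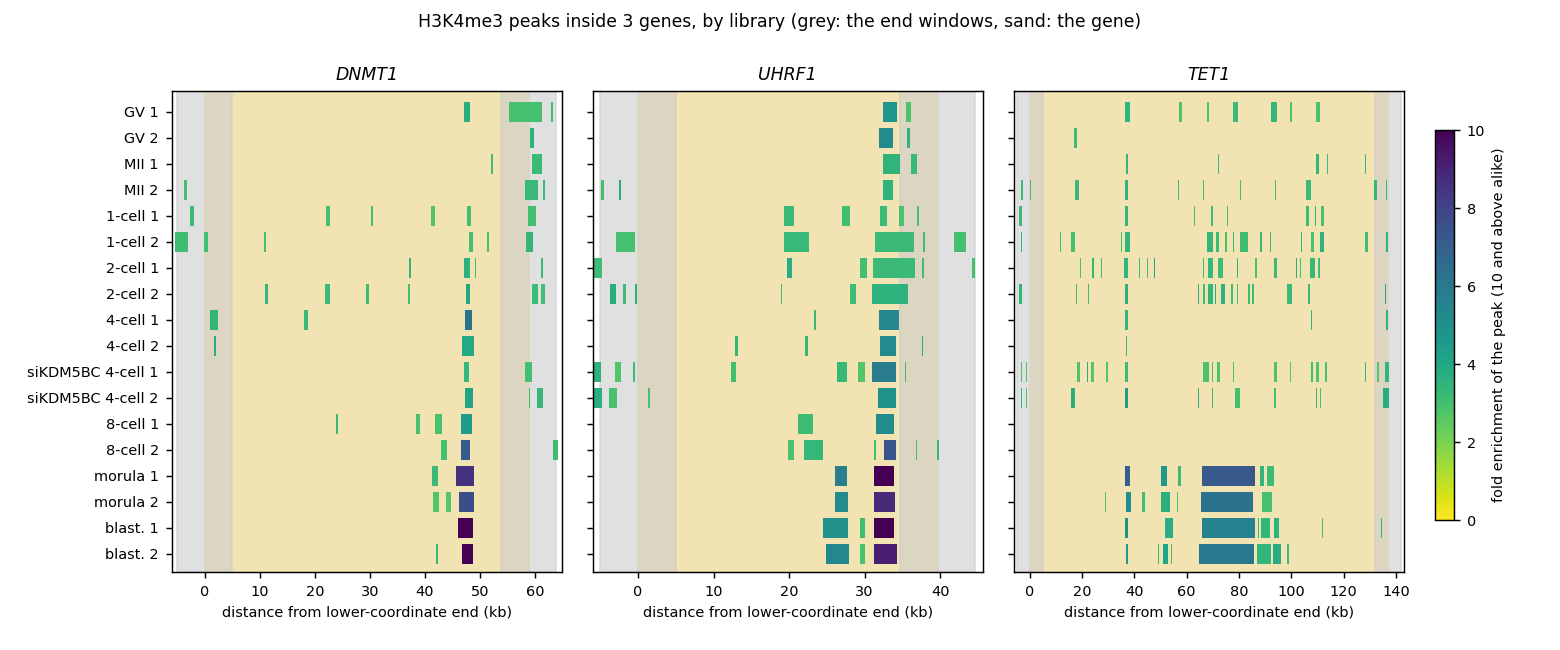
H3K4me3 peaks over DNMT1, UHRF1 and TET1 in each library (rows), against the distance in kb from the lower-coordinate end of the gene; colour gives the authors' fold enrichment, sand marks the gene and grey the 2 end windows. The peaks of DNMT1 and UHRF1 with the highest fold stand inside the gene, and TET1 has a block of about 20 kb only in the morula and blastocyst libraries among those drawn.

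The dioxygenases differed from each other. TET1 (gene 100625859, chromosome 14, 71675671 to 71812732) had no peak at either end in the GV, 8-cell and morula libraries, and 202 bp at the upper end in blastocyst replicate 1 was the only blastocyst cover there. Inside the gene, 65.7 kb from its lower end, it had 1 peak of 20206 and 19876 bp in morulae and of 20471 and 21017 bp in blastocysts. In the other 14 H3K4me3 libraries the widest peak at that site was 3076 bp, in 1-cell replicate 2, and both 8-cell libraries had none over the whole gene and its flanks. Whole-gene cover in MII oocytes was 3503 and 8120 bp, against 30704 and 33514 bp in blastocysts, a difference of 26298 ± 3809 bp (SE; limma, BH adjusted p = 8.08e-05; 48.5% of all genes passed in this comparison). The annotation places the pseudogene LOC106508086 within that block, and the lists cannot assign the peak to either.

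TET2 (gene 100521465, chromosome 8, 116413253 to 116546976) was marked at its upper end in every library. The cover was 3821 and 1816 bp in GV oocytes, 0.41 kb and 1273 bp in MII oocytes, 638 and 2917 bp at the 1-cell stage and 1418 and 2144 bp at the 2-cell stage. It was 2233 and 1842 bp at the 4-cell stage, 1790 and 1653 bp at the 8-cell stage, 5106 and 5414 bp in morulae and 4715 and 5390 bp in blastocysts. All 4 late libraries were above every earlier library. The change across stages passed the test (limma, BH adjusted p = 0.00325), as did the 8-cell to morula step of 3539 ± 773 bp (limma, BH adjusted p = 0.0076). The fold enrichment of the peak there was 8.42 to 10.4 in morulae and blastocysts and 3.03 to 5.45 in the other libraries. The share of peaks in the same list with a lower fold was 91.0% to 93.15% in morulae and blastocysts. In the other libraries that share was 61.0% (MII replicate 1) to 90.9% (2-cell replicate 1). The lower end was empty in all but morula replicate 2, with 178 bp.

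TET3 (gene 100520484, chromosome 3, 68918896 to 69020406) carried broad cover at its upper end from the oocyte on. The values were 3537 and 4512 bp in GV oocytes, 1119 and 4670 bp in MII oocytes, 4786 and 3225 bp at the 1-cell stage and 5692 and 7658 bp at the 2-cell stage. They were 3264 and 944 bp at the 4-cell stage, 2380 and 2977 bp at the 8-cell stage, 5082 and 5453 bp in morulae and 5881 and 6650 bp in blastocysts. The 2-cell libraries and the 4 late libraries were above all 4 libraries of the 4-cell and 8-cell stages (across stages, limma, BH adjusted p = 0.0361). With peaks of −log10 q of 3 or more alone, only GV replicate 1 (2841 bp) had cover there up to the 2-cell stage. The 4-cell libraries then held 1251 and 0 bp and the 8-cell libraries 1581 and 1850 bp. The morula and blastocyst values were the same as without that threshold. LOC102163719 overlaps this end, with its own lower end 341 bp away. The strongest TET3 peak of the blastocyst libraries was another, 60.6 kb from the lower end and 40.0 kb from the upper end, with a fold enrichment of 9.06 and 10.3 there and at most 6.32 in any other H3K4me3 library. The share of peaks in the same list with a lower fold was 90.3% and 92.5% in blastocysts and at most 96.7% elsewhere, in GV replicate 1.

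ZFP57 (gene 100141415, chromosome 7, 22607420 to 22612064) is 4645 bp long, so its 2 windows overlap, and the upper end of MOG lies 1283 bp from its lower end. Cover at the upper end was 1567 and 717 bp in GV oocytes, 987 and 0 bp in MII oocytes, 1564 and 1822 bp at the 1-cell stage, 1728 and 942 bp at the 2-cell stage and 1397 and 929 bp at the 4-cell stage. It was 1279 and 1603 bp at the 8-cell stage, 3593 and 2521 bp in morulae and 5217 and 6684 bp in blastocysts. The 2 blastocyst libraries were highest, the morula libraries came next and all earlier untreated libraries were below both (across stages, limma, BH adjusted p = 0.000909). The step from morula to blastocyst was 2894 ± 692 bp (limma, BH adjusted p = 0.0287; 5.23% of all ends passed at this step). The lower end held 2228 and 2224 bp in MII oocytes, 0 at the 1-cell, 4-cell and 8-cell stages, 2404 and 3117 bp in morulae and 4484 and 5753 bp in blastocysts. It fell from the MII oocyte to the 1-cell stage by 2226 ± 618 bp (limma, BH adjusted p = 0.0415; 9.74% of all ends passed). That fall rests on weak peaks. At the lower end, every MII peak had a −log10 q below 3, so no fall was left at that threshold. Cover there was also low on either side of these stages, at 459 bp (replicate 1) and 0 (replicate 2) in GV libraries. In 2-cell libraries it was 361 bp (replicate 1) and 365 bp (replicate 2).

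With 1 stage library left out in turn, both ends of ZFP57, the upper end of TET2 and the lower end of DNMT3A passed across stages in all 16 fits. The upper end of TET3 did not pass without 2-cell replicate 2, 4-cell replicate 2 or any 1 of the 8-cell, morula and blastocyst libraries, which left 4 ends except without 2-cell replicate 2, where both ends of DNMT3A passed. Other ends joined these 5 without 1-cell replicate 1, for a count of 10, and without 1-cell replicate 2, for a count of 9. The lower end of DNMT3A did not pass under quantile normalization or with peaks under 3 kb apart joined. In windows of 2.5 kb the upper end of TET2 did not pass. The upper end of TET3 passed in none of these settings, and both ends of ZFP57 passed in all of them. Under quantile normalization both ends of DNMT3L, the lower end of DNMT1 and the upper end of DNMT3A passed as well.

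The comparison of blastocysts with MII oocytes spans the whole course from the unfertilised egg. ZFP57, TET2, DNMT3A and TET3 had more H3K4me3 at a gene end in blastocysts, in 5 of the 18 ends, and none passed as lower (limma; at an unadjusted p under 0.05, 7 ends differed, all higher). The upper end of ZFP57 rose by 5457 ± 692 bp (SE; limma, BH adjusted p = 9.16e-05) and its lower end by 2893 ± 618 bp (limma, BH adjusted p = 0.00326). The upper end of TET2 rose by 4210 ± 773 bp (limma, BH adjusted p = 0.00122), the lower end of DNMT3A by 3829 ± 976 bp (limma, BH adjusted p = 0.00925) and the upper end of TET3 by 3371 ± 1174 bp (limma, BH adjusted p = 0.0426). Of all ends, 29.6% passed as higher and 4.59% as lower. Without a test, 10 of the 18 ends had both libraries of 1 stage above both of the other and means 1000 bp apart, as 49.7% of all ends did. The median difference was -292 bp over the 18 ends and 536 bp over all ends tested.

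The 13 ends that did not pass include both ends of DNMT3L, DNMT1 and UHRF1. At DNMT3L the blastocyst values were 1735 and 1724 bp at the lower end and 0 and 606 bp at the upper end, against 2298 and 3642 bp (lower) and 3249 and 2568 bp (upper) in MII oocytes. Over whole genes, TET1, TET2, TET3, ZFP57 and DNMT3B were higher in blastocysts; TET2 went from 0.287% and 0.886% of the gene and its flanks to 13.1% and 15.0%. Giving all libraries the same distribution of covered bp (quantile normalization) moved the share of calls that were higher over all ends from 86.6% to 56%. Under it, the upper ends of ZFP57 (3778 bp) and TET2 (2568 bp) still passed, and both ends of DNMT3L (-2893 and -4178 bp) and the upper end of DNMT1 (-3482 bp) passed as lower (limma). With peaks of −log10 q of 3 or more alone, 100% of calls over all ends were higher, among them the lower end of DNMT3L. Without MII replicate 1, and also without blastocyst replicate 2, the count was 3 ends, which were both ends of ZFP57 and the upper end of TET2.

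From the 2-cell to the 4-cell stage, when the pig embryo activates its genome, TET3 was the only gene of the 9 with a called end. Its upper end fell from 5692 and 7658 bp to 3264 and 944 bp, a difference of -4571 ± 1174 bp (SE; limma, BH adjusted p = 0.0357). That is 1 end of 18 as lower, and 7.64% of all ends passed as lower. Without a test, 6 of the 18 ends were fully apart by 1000 bp, as were 31.6% of all ends. The median difference was -465 bp over the 18 ends and -439 bp over all ends. The lower end of DNMT3L went from 4627 and 4821 bp to 1553 and 1247 bp without passing (-3324 bp; limma, BH adjusted p = 0.0815). Over whole genes, DNMT3A (-16062 bp; limma, BH adjusted p = 0.0365) and TET1 (-12580 bp; limma, BH adjusted p = 0.0378) were lower, where 17% of all genes passed.

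The TET3 call was lost whenever 1 of the 4 libraries was left out, with differences of -5731 to -3411 bp, and without 2-cell replicate 2 the upper end of DNMT3A passed in its place. With peaks of −log10 q of 3 or more alone, the difference at the TET3 upper end was 625 bp, in the opposite direction. All ends turned likewise: 99.9% of calls were then higher, against 3.1%, and the median difference was 681.5 bp. The only member end called was the lower end of DNMT3L, as higher (limma), with 0 bp in both 2-cell libraries and 1246 and 947 bp at the 4-cell stage. Under quantile normalization the TET3 difference was -3235 bp and did not pass, and the lower end of DNMT1 passed as higher (1496 bp). The share of calls that were higher over all ends went from 3.1% to 44.2%.

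The siKDM5BC comparison asks what H3K4me3 looks like when the demethylases KDM5B and KDM5C are depleted at the 4-cell stage. DNMT3L had the largest differences at gene ends among the 9 genes. Its lower end was covered for 8364 and 8622 bp in siKDM5BC embryos and 1553 and 1247 bp in untreated 4-cell embryos, and its upper end for 5806 and 6355 bp against 960 and 360 bp. Both ends of TET3 and TET1 were also higher, so 6 of the 18 ends passed as higher and none as lower (limma); at an unadjusted p under 0.05, 8 ends differed, all of them higher. Over all ends 26.8% passed as higher and 0.152% as lower, and the median difference was 935 bp over the 18 ends and 959 bp over all ends.

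The lower end of DNMT3L differed by 7093 ± 1081 bp (SE; limma, BH adjusted p = 0.000999) and the upper end by 5421 ± 1346 bp (limma, BH adjusted p = 0.0116). Within 2.5 kb of the lower end, the cover was 5001 and 3622 bp against 307 and 0 bp. In siKDM5BC embryos this window does not leave out the peak over the upper end of ICOSLG. That peak ran across the lower end of DNMT3L in replicate 1 and to 1398 bp from it in replicate 2. The whole gene with its flanks was covered for 71.0% and 77.6% in siKDM5BC embryos, more than in any stage library, where the highest was 48.2% at the 2-cell stage. The cover was in wide peaks, of which the widest was 20981 bp in replicate 2. It reached past the gene: within 50 kb on either side, 80.0% was covered in both siKDM5BC libraries, 20.7% and 14.6% in 4-cell embryos and 50.3% and 30.8% in 2-cell embryos.

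**Figure D3:**
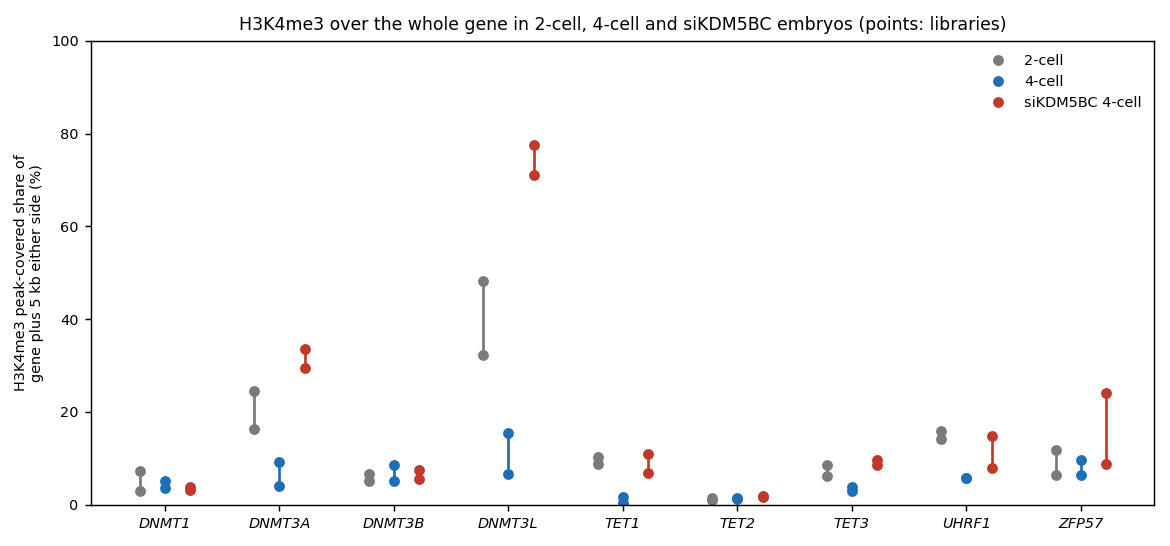
Share (%) of each gene with 5 kb on either side under H3K4me3 peaks in 2-cell, untreated 4-cell and siKDM5BC 4-cell embryos, with each point 1 library. DNMT3L stands at 71.0% and 77.6% and DNMT3A at 33.6% and 29.4% in the siKDM5BC libraries, and the plot shows the spread of the other 7 genes on the same axis.

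DNMT3A passed over the whole gene and not at its ends. Its whole-gene cover was 39424 and 34423 bp in siKDM5BC embryos and 10789 and 4831 bp in untreated 4-cell embryos, a difference of 29114 ± 4814 bp (SE; limma, BH adjusted p = 0.000557; 39.9% of all genes passed). A single peak of 15622 and 20266 bp ran from its lower end into the gene, where the 4-cell peak was 2679 and 2457 bp wide. The lower window itself held 4878 and 4956 bp against 2679 and 2457 bp and did not pass (limma, BH adjusted p = 0.095).

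Among the dioxygenases, the upper end of TET3 held 7641 and 6344 bp against 3264 and 944 bp (4889 ± 1174 bp; limma, BH adjusted p = 0.00988) and its lower end 678 and 1186 bp against 0 in both. The upper end of TET1 held 2487 and 2018 bp against 762 and 0 bp (1872 ± 404 bp; limma, BH adjusted p = 0.00583) and its lower end 751 and 830 bp against 0 in both. The 2 lower ends passed narrowly (limma, BH adjusted p = 0.0432 for TET3 and 0.0483 for TET1). With peaks of −log10 q of 3 or more alone, no end of TET1 or TET3 passed. TET1 then had no cover at either end in either group. TET2 did not pass at its upper end, with 2556 and 2750 bp against 2233 and 1842 bp (limma, BH adjusted p = 0.624). DNMT3B had 2217 and 1779 bp against 1821 and 724 bp at its lower end (limma, BH adjusted p = 0.544), and its whole-gene difference was -131 ± 1392 bp. The inner peak of DNMT1 had a fold enrichment of 3.42 and 4.11 against 6.24 and 3.97, and that of UHRF1 5.82 and 4.96 against 5.36 and 5.20.

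The siKDM5BC peaks covered 178.8 and 164.3 Mb of the genome against 56.4 and 31.6 Mb at the 4-cell stage, and the lowest fold kept in a list was 2.70 and 2.86 against 3.11 and 3.31. Their part in the gene values was not tested. Under quantile normalization the lower end of DNMT3L still passed as higher (3600 ± 864 bp; limma, BH adjusted p = 0.0409), the lower end of DNMT1 passed as lower (-1496 bp) and no other end passed. The share of calls that were higher over all ends was then 66.2%, against 99.4%. With peaks of −log10 q of 3 or more alone, the called ends were both ends of DNMT3L and both ends of DNMT3A (limma). Without 4-cell replicate 2 the lower end of DNMT3L was the 1 end that passed, and without siKDM5BC replicate 1 there were 3.

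H3K27me3 was scarce at these genes, apart from DNMT3L in MII oocytes. Its lower end was covered for 7582 and 6779 bp and its upper end for 4950 and 4967 bp in MII oocytes. At the 2-cell, 4-cell and 8-cell stages both windows were empty in all 6 libraries. In morulae the lower end held 0 and 292 bp, and in blastocysts 2803 and 3970 bp, with 910 and 323 bp at the upper end. The mark was thus high in the egg, absent from the windows during cleavage and present again, over less of the gene, in the blastocyst. The blastocyst cover in both windows lay only under peaks of −log10 q below 3. With peaks of −log10 q of 3 or more alone, MII oocytes held 7582 and 5586 bp at the lower end. The upper end then held 4950 and 1653 bp. Over the whole gene with its flanks the share was 70.2% and 61.8% in MII oocytes and 16.7% and 15.95% in blastocysts.

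**Figure D4:**
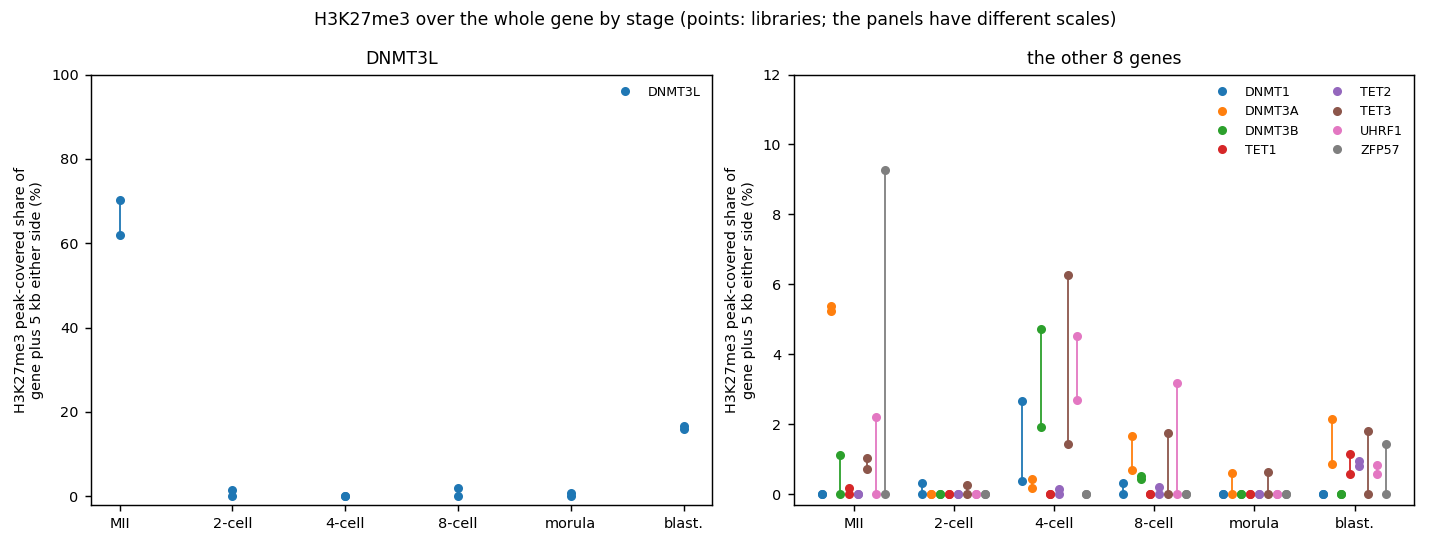
Share (%) of each gene with 5 kb on either side under H3K27me3 peaks at the 6 stages, for DNMT3L on the left and the other 8 genes on the right, with each point 1 library and different scales on the y axes. DNMT3L is at 70.2% and 61.8% in MII oocytes, and no library of another gene is above 9.26%.

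DNMT3A was the other gene with the mark at an end in both MII libraries, with 1974 and 2309 bp at its lower end, 0 from the 2-cell stage to the morula and 311 and 0 bp in blastocysts. ZFP57 had 1356 bp in MII replicate 1 alone and 212 bp at its upper end in blastocyst replicate 1. DNMT1 had 1403 bp at its lower end in 4-cell replicate 2 alone, and TET3 had 701 bp in morula replicate 2 and 2008 bp in blastocyst replicate 2 at its upper end. The lower end of TET2 held 161 to 178 bp in 3 libraries. No H3K27me3 peak lay within 5 kb of an end of DNMT3B, TET1 or UHRF1 in any of the 12 libraries. In all, 8 of the 18 ends had a peak in at least 1 library and could be fitted, and those ends entered through the library where they were marked.

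Across the 6 stages 3 of the 8 fitted ends passed the test (both ends of DNMT3L and the lower end of DNMT3A), and 37.6% of all fitted ends passed. From the MII oocyte to the 2-cell stage the same 3 ends were lower, where 16.7% of all ends passed as lower. The lower end of DNMT3L fell by 7181 ± 430 bp (SE; limma, BH adjusted p = 9.14e-06) and its upper end fell by 4959 ± 224 bp (limma, BH adjusted p = 2.37e-06). The lower end of DNMT3A fell by 2142 ± 169 bp (limma, BH adjusted p = 4.02e-05). From the 2-cell stage to the morula, the lower end of DNMT3A and the upper end of DNMT3L were empty in both libraries of each group. Those groups enter the shared spread, so these SEs and p-values do not measure the spread of the MII libraries alone. From morula to blastocyst the lower end of DNMT3L was the 1 end that passed as higher, by 3241 ± 430 bp (limma, BH adjusted p = 0.000703), where 26.7% of all ends passed as higher. H3K27me3 peaks covered 71.4 and 61.9 Mb in MII oocytes, 2.01 and 1.28 Mb at the 2-cell stage, 10.8 and 13.6 Mb in morulae and 84.7 and 108.9 Mb in blastocysts, so at both steps the called ends moved in the direction of the whole list.

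Over whole genes, DNMT3L, DNMT3A, TET2, TET1 and DNMT3B passed across the 6 stages, where 50.3% of all genes passed. DNMT3L (-21492 bp) and DNMT3A (-6216 bp) were lower from the MII oocyte to the 2-cell stage, where 17% of all genes passed. DNMT3L (5244 bp), TET1 (1270 bp) and TET2 (1257 bp) were higher from morula to blastocyst, where 40.1% of all genes passed.

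The 3 MII to 2-cell calls passed under quantile normalization as well. The blastocyst call did not (874 bp; limma, BH adjusted p = 0.143), nor did it in windows of 2.5 kb (724 bp), and the share of calls that were higher over all ends went from 99.9% to 82.9%. With peaks of −log10 q of 3 or more alone, only the lower end of DNMT3L was called from MII to the 2-cell stage and across stages. The lower end of DNMT3A then held 0 bp in both MII libraries. No end was called from morula to blastocyst at that threshold. Without MII replicate 2 both ends of ZFP57 joined the calls from MII to the 2-cell stage, making 5, and the count across stages was also 5, as it was without 4-cell replicate 1. Without blastocyst replicate 1 the blastocyst count was 3 and without replicate 2 it was 2.

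H3K4me3 and H3K27me3 overlapped at DNMT3L in MII oocytes. Bases under both marks, in libraries of the same replicate number, came to 2298 and 3165 bp at the lower end and 2644 and 1631 bp at the upper end. At the lower end of DNMT3A they came to 178 and 978 bp. In blastocysts the overlap at the lower end of DNMT3L was 722 and 448 bp. The marks were mapped in separate libraries of many cells, so whether they lay on the same chromatin was not tested.

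The bases covered by H3K4me3 at DNMT3L in siKDM5BC embryos were for the most part under H3K27me3 in the egg. Of the 21944 bp of the gene and its flanks that were under H3K4me3 peaks in both siKDM5BC libraries, 82.8% and 74.6% were under H3K27me3 peaks in the MII libraries. The share of the same bases under H3K4me3 was 58.7% and 34.6% in GV oocytes, 56.4% and 41.1% at the 2-cell stage and 22.8% and 9.9% at the 4-cell stage. At DNMT3A, 30503 bp were under peaks in both siKDM5BC libraries, and 17.9% and 17.9% of them were under MII H3K27me3 while 62.1% and 47.1% were under 2-cell H3K4me3. These shares are a description, since the lists also differ in how much of the neighbourhood they cover: within 50 kb of DNMT3L the MII H3K27me3 lists covered 75.4% and 67.5%.

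**Figure D5:**
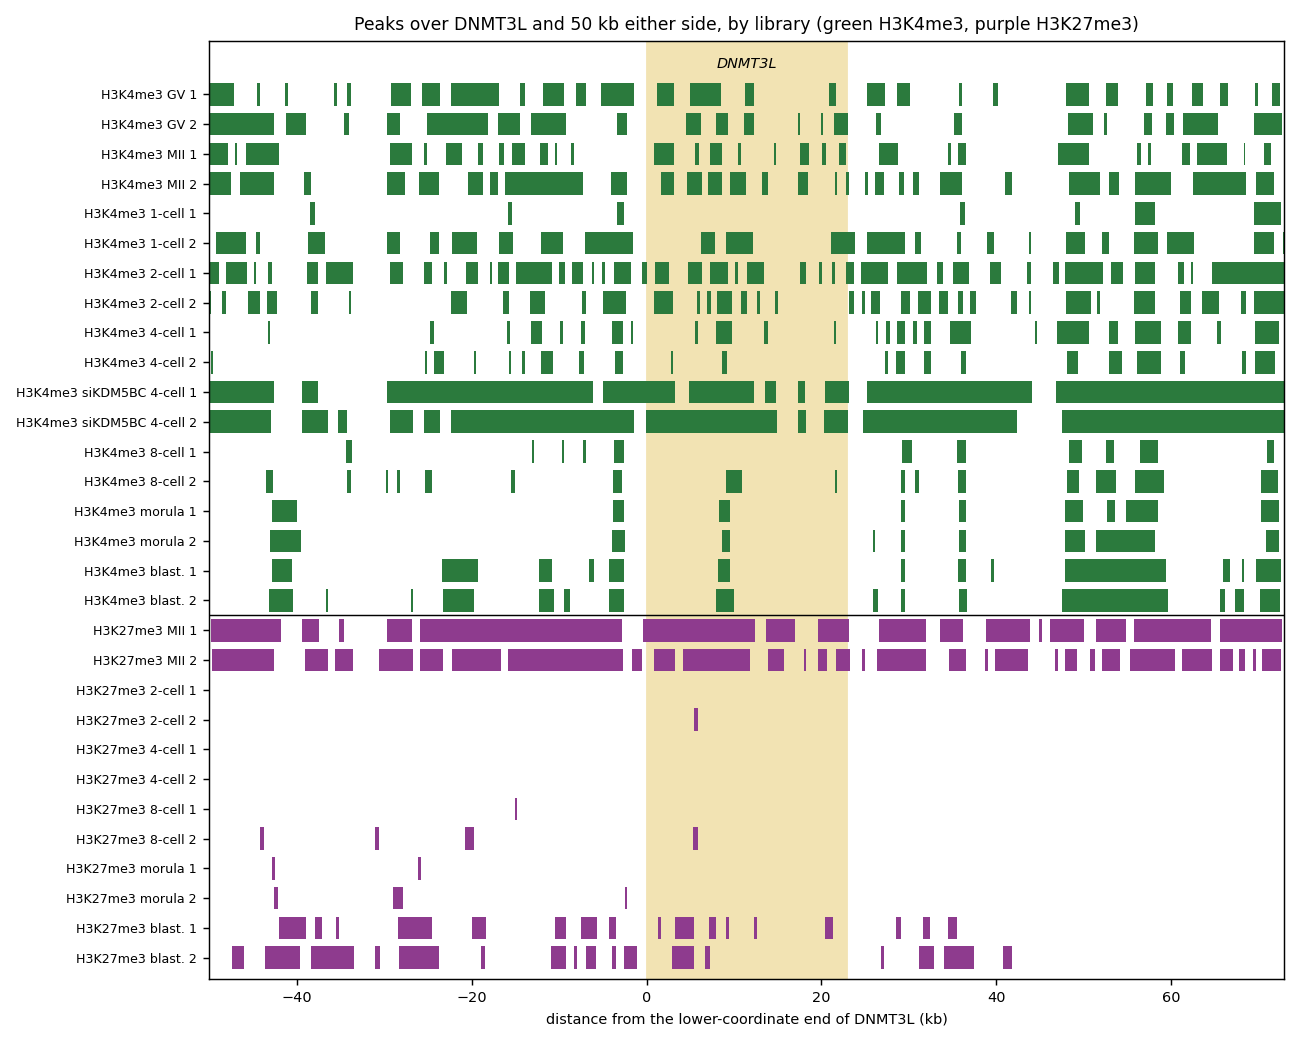
Peaks over DNMT3L (shaded) and 50 kb on either side in all 30 libraries (rows), H3K4me3 in green above the line and H3K27me3 in purple below it, against the distance in kb from the lower-coordinate end. Wide blocks fill the neighbourhood in the 2 siKDM5BC libraries (80.0% covered in both) and in the 2 MII H3K27me3 libraries (75.4% and 67.5%).

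Other genes that act on DNA methylation were followed in a list of 50 symbols, of which 49 were in the annotation, with 98 ends, of which 93 had an H3K4me3 peak in some library and 52 an H3K27me3 peak. Across the 8 stages 53 of the 93 ends, in 36 genes, passed for H3K4me3 (limma), where 45.7% of all ends did. In siKDM5BC embryos 22 of the 93 ends, in 17 genes, passed as higher, where 26.8% of all ends did, and none as lower (limma; 39 ends differed at an unadjusted p under 0.05, in either direction). The largest differences were at SMUG1, a uracil DNA glycosylase (lower end 5948 bp), CTCFL, a germline paralogue of CTCF (upper end 5526 bp), NLRP2, a maternal-effect gene (lower end 5398 bp), and GADD45A (lower end 4468 bp). From the 2-cell to the 4-cell stage 10 of the 93 ends, in 9 genes, passed as lower, where 7.64% of all ends did, led by SMUG1 (-6499 bp), the repair scaffold XRCC1 (-4285 bp), the methyl-CpG binding family member MBD3 (-3378 bp) and IDH2 (-3253 bp). From the MII oocyte to the blastocyst 38 of the 93 ends passed as higher and 3 as lower, where 29.6% and 4.59% of all ends did. The largest rises were at the base excision repair nuclease APEX1 (8280 bp), DPPA3, which protects the maternal genome from TET3 (8113 bp), and the S-adenosylmethionine synthetase MAT2A (6832 bp).

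For H3K27me3, 6 of the 52 ends were lower at the 2-cell stage than in MII oocytes, where 16.7% of all ends were, and the 3 genes were SMUG1 (lower end -3320 bp), CTCFL (lower end -2689 bp) and GADD45G (-2257 bp at both ends). From morula to blastocyst 19 of the 52 ends, in 14 genes, were higher, where 26.7% of all ends were, led by MAT2A (2891 bp), KHDC3L (2171 bp), GADD45A (2130 bp) and OOEP (1773 bp). SMUG1 and CTCFL stood beside DNMT3L in 2 of these comparisons, with H3K27me3 called lower after the MII oocyte and H3K4me3 called higher in siKDM5BC embryos. Both were picked out after their values were seen.

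Across the 16 stage libraries, the 9 genes did not follow 1 course. Pearson's r between the larger-end H3K4me3 covers of 2 of these genes was highest for DNMT3A with TET2 (0.82), DNMT3L with UHRF1 (0.74), DNMT3A with DNMT3B (0.73) and TET2 with ZFP57 (0.72), and lowest for DNMT1 with ZFP57 (-0.32) and TET1 with TET2 (-0.31). Among all coding genes over 1 Mb away, the most alike were MARCH5 (0.98) and THRB (0.97) for TET2, CCRL2 and LOC110256827 (0.96 each) for DNMT3L, KLK4 (0.97) and SPATA3 (0.97) for UHRF1, and SLC5A4 and AADACL2 (0.96 each) for ZFP57. They were EXT1 (0.95) and IFFO2 (0.92) for DNMT3A, UBE2D1 and ZMIZ2 (0.93 each) for DNMT3B, SEMA3C (0.92) and SLC17A3 (0.91) for DNMT1, ATP6V1B1 and TNFRSF21 (0.90 each) for TET3, and KCNJ6 and CHST1 (0.83 each) for TET1. The libraries share stage and the genome-wide cover of their lists, and the pairs were the highest of many, so these values are descriptions of likeness alone.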

How the data were processed

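ULI-NChIP-seq libraries of H3K4me3 (18) and H3K27me3 (12) were used, 1 broad peak list per library, with replicates not pooled. Per the submitters' processing notes, Bowtie2 2.4.1, MACS2 and build susScr11 were used; the MACS2 version is not given in the sources used here, nor its settings and input control. The deposited columns are peak start and end in bp, a fold enrichment ratio, and −log10 p and −log10 q. Peaks on chromosomes 1 to 18 and X were kept as deposited. Gene ends came from RefSeq on Sscrofa11.1, the same assembly, with no strand, so the lower and upper ends stand where start and end had been planned. Ends with a peak in at least 1 library of the mark (34796 for H3K4me3 and 21656 for H3K27me3, of 38968) were fitted with limma 3.58.1 in R 4.3.3 (trend, all libraries of the mark, groups sharing 1 spread, BH threshold 0.05), tested on simulated data. Covered bp depend on how many peaks a list holds, and depth was not available to correct this. All 9 members are named, with up to 4 genes of the wider list per comparison by largest difference among called ends (1 such gene is not reported here); likeness is Pearson's r of the larger end, the 2 highest genes over 1 Mb away. The members and lists were chosen with earlier results of these data known. Alternatives covered scale, filter, peak threshold, window, joining, quantile normalization, samples fitted, library weights, replicate block and leaving out each library; whole-gene and larger-end features were added after seeing the data.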

Additional observations from a re-analysis of the deposited data

Results flagged for a closer look

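Peaks on sequences not placed on a chromosome appeared in 2 lists alone. The siKDM5BC replicate 1 list held 1212 of them and the replicate 2 list 1087, on lists that name 111 and 120 sequences, while the other 28 lists name 20 sequences each and hold 0 such peaks. These peaks entered no value above. Whether the siKDM5BC lists were made with other settings than the untreated ones cannot be told apart from the treatment with these files.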

How the results depend on the processing

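Counts of called ends among the 18 (5 across stages, 1 for 4-cell against 2-cell, 6 for siKDM5BC, 5 for blastocyst against MII, and for H3K27me3 3, 3 and 1) moved as follows. On a log2(bp + 500) scale they became 8 across stages, 0 for 4-cell against 2-cell, 3 for siKDM5BC and 3 for H3K27me3 in the blastocyst. With peaks of −log10 q of 3 or more they became 8 across stages and 8 for blastocyst against MII, and 1, 1 and 0 for H3K27me3. The ends called at that threshold also changed. For siKDM5BC they were both ends of DNMT3A and DNMT3L, and for 4-cell against 2-cell the lower end of DNMT3L. Library weights gave 11, 2 and 8 for stages, 4-cell and blastocyst H3K4me3 and 0 for blastocyst H3K27me3, but did not converge for the 3 H3K27me3 results. Joining peaks under 3 kb apart gave 2 for 4-cell against 2-cell and 3 for blastocyst against MII. Windows of 2.5 kb gave 0 for 4-cell against 2-cell and 0 for blastocyst H3K27me3. Quantile normalization gave 2 for siKDM5BC and 0 for blastocyst H3K27me3. No filter, or a fit of the 2 groups alone, gave 0 for 4-cell against 2-cell. Without a test, libraries fully apart by 1000 bp numbered 6 for 4-cell against 2-cell and 10 for blastocyst against MII. Whole genes gave 2 for 4-cell against 2-cell and, for H3K27me3, 5 across stages and 3 in the blastocyst, and the larger end gave 3 for siKDM5BC. Leaving out 1 library gave 4 to 10 across stages, 0 to 1 for 4-cell against 2-cell, 1 to 4 for siKDM5BC, 3 to 5 for blastocyst against MII, and 3 to 5, 3 to 5 and 1 to 3 for H3K27me3. Same-numbered libraries did not deviate together (r from -0.22 to 0.29 over 36 pairs of H3K4me3 groups and -0.07 to 0.09 over 15 of H3K27me3), so the numbers were not taken as pairs. With the replicate number as a block the counts were 5, 1, 5, 4, 3, 3 and 1, and the calls lost were the lower end of TET1 in siKDM5BC and the upper end of TET3 in the blastocyst. The 1 reversal was the upper end of TET3 from 2-cell to 4-cell at the stricter peak threshold (625 bp). Of single ends under alternatives, 129 values kept their call and 41 did not pass, without a reversed direction. Some of the latter had no difference left, as at the lower end of DNMT3L for blastocyst H3K27me3 at the stricter peak threshold. This tally leaves out the log2, quantile, whole-gene and larger-end settings. It also leaves out ends with no cover to fit, such as both ends of TET1 at the stricter threshold. At an unadjusted p under 0.05, 4 ends differed for 4-cell against 2-cell and 3 for blastocyst H3K27me3. The fit of stage groups alone for H3K27me3 is the main one and was not repeated. The cause of these shifts was not tested.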
